A study of Brassica napus with 16 samples.

Results

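Root was set against flower bud in oilseed rape, Brassica napus, a polyploid that carries the A and C subgenomes of its parent species, in 8 of the 16 RNA-seq libraries of the series. The 8 libraries were chosen by their tissue and fall into 4 groups with 2 replicates each: root of 2063A, root of B409, flower bud of 2063A and flower bud of B409. By the labelled protocols, the root age was 7 d on damp filter paper, in a growth room with 16 h days at 22 °C and 8 h nights at 18 °C. Buds of the flower measured at most 2 mm and came from plants moved to the field at about 20 d of age. The labels name no treatment other than freezing and no transgene in either cultivar. Whether replicates were different plants is not stated, so the p-values cover the spread of these libraries, and that spread may be technical. Tissue is tied to plant age and growing place here, and these cannot be told apart. The RNA-seq belongs to a study of the epigenomes of this crop in several tissues.

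A seedling root takes up water and mineral nutrients, anchors the plant and carries no photosynthesis of note. A young flower bud encloses sepals, petals, stamens and pistil that are still forming, and its anthers prepare the male germ line. In such a polyploid many genes are present as an A copy and a C copy, each of which can be used differently in a tissue. Both organs are mixtures of cell types measured in bulk, so fewer cells of a type and less RNA per cell cannot be told apart. The tissue labels were not checked against marker genes, since the files list identifiers alone and the RefSeq table used gives a name other than the identifier to 2 of the 3347 identifiers it matched.

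Expression was measured as FPKM (fragments scaled to transcript length and to the mapped fragments of the library) for 101040 listed genes, of which 50577 (50.1%) reached an FPKM of 1 in at least 2 of the 8 libraries and were tested. Of the others, 34150 were listed at 0 in all 8 libraries. Depth relative to 2063A root replicate 1 was 0.889 to 0.958 in the other 3 root libraries, against 1.46 and 1.84 in flower bud of 2063A and 1.02 and 0.668 in flower bud of B409. Across tested genes, log2 values of replicates correlated at 0.985 to 0.989 and those of a tissue between cultivars at 0.885 to 0.890, while root and flower bud libraries of 1 cultivar correlated at 0.444 to 0.467. These values are across genes, which share each library, and are a description. In none of 87910 cases with an FPKM of 5 or more in 1 replicate was the other replicate of the group listed at 0.

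The first question was which genes differ between root and flower bud. A gene was called at an adjusted p below 0.05 (limma on log2(FPKM + 1) with cultivar as covariate) and a change of at least 2-fold. In root, 10254 genes were called higher (20.3% of those tested) and 11526 lower (22.8%), so 43.1% of the tested genes were called. The median change was 1.85 on the log2 scale among genes called higher and -1.60 among genes called lower, with a median of -0.24 over all tested genes. All 4 root libraries lay above all 4 flower bud libraries in 9791 of the genes called higher, and below them in 10817 of those called lower. Over all tested genes 27.3% lay above without overlap and 36.1% below. The median over all tested genes became -0.13 when the 8 libraries were given the same distribution (quantile normalization), and the split of 47.1% higher calls became 52.2% (11043 higher, 10124 lower). The changes below are not recentred and so include a shift of this size, and which direction held more calls turned with the scaling.

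**Figure D1:**
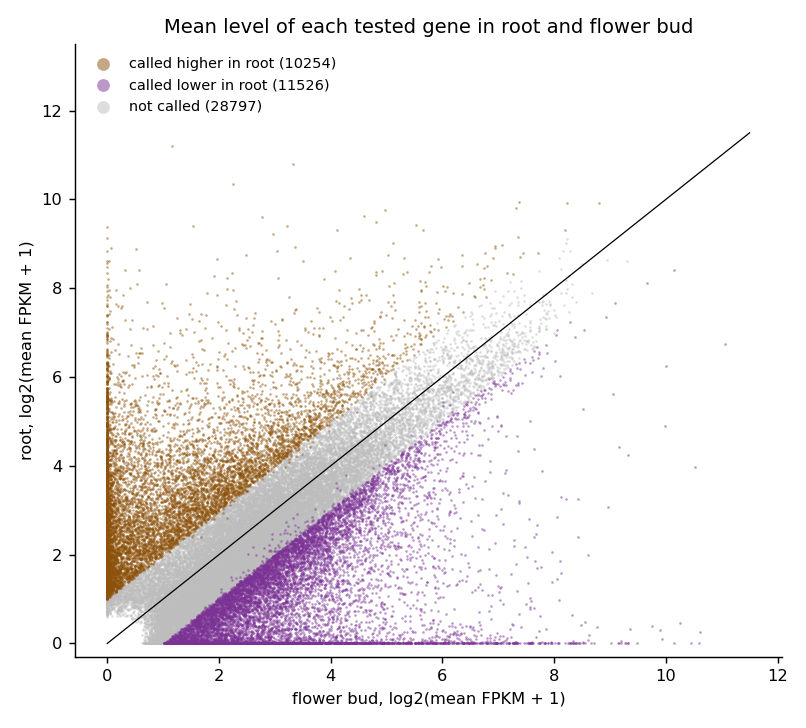
Each point is a tested gene; the vertical axis gives log2(mean FPKM + 1) over the 4 root libraries and the horizontal axis the same over the 4 flower bud libraries, coloured by call, with a line of equal level. The 10254 genes called higher in root lie above the line and the 11526 called lower below it, both reaching to the axis where the other tissue is at 0.

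Changes of many sizes were seen. Among genes called higher, 758 changed by 4 to 6 on the log2 scale and 127 by 6 or more, and among genes called lower 630 and 271 did. An FPKM of 1 or more in all 4 root libraries and below 1 in all 4 flower bud libraries was seen for 4504 genes, and the reverse for 4659. Of the root set 1792 genes were listed at 0 in every flower bud library, and of the flower bud set 1706 were listed at 0 in every root library. The sets differed at the top: 47 genes reached 100 or more in all 4 root libraries while staying below 1 in flower bud, against 110 genes that reached 100 in all 4 flower bud libraries while staying below 1 in root. The numbers at 10 or more were nearly equal, 878 for root and 849 for flower bud. Summed FPKM was 519039 to 525780 in the root libraries and 543962 to 568192 in the flower bud libraries. These counts by level, and those of abundant genes below, use FPKM as listed and were not repeated with other scalings. In all, 26649 genes had an FPKM of 1 or more in all 8 libraries. Of them 19401 were not called, where 28797 of the 50577 tested genes were not called. Not being called does not mean an equal level: 5845 of the 26649 had an absolute log2 change below 0.25.

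Among abundant genes the overlap was partial. A mean FPKM of 100 or more was reached by 586 genes in root and by 707 in flower bud, and 218 genes reached it in both, which is 37.2% of the root set and 30.8% of the flower bud set. Below 1 in the other tissue were 70 of the root set and 177 of the flower bud set. The 100 most abundant genes of root and of flower bud, by means over both cultivars, had 18 genes in common. By means within a cultivar, the tissues had 16 in common in 2063A and 14 in B409. The lists of 2063A and B409 had 73 in common in root and 58 in flower bud. Genes called higher in root held 40.8% and 40.9% of summed FPKM in root of 2063A and 42.6% and 42.8% in root of B409, against 6.40% and 6.40% in flower bud of 2063A and 5.48% and 5.36% in flower bud of B409. Genes called lower in root held 6.24% to 6.38% of summed FPKM in the root libraries and 39.0% to 40.6% in the flower bud libraries. The calls were made on these same libraries, so the direction of both contrasts is fixed and the shares describe size only. About the same share of the transcript pool in each tissue, 50.5% to 53.9%, came from genes that were not called.

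BnaC01g15480D and BnaA03g30810D had the largest fitted rises in root at the pseudocount of 1, and BnaC01g15480D was the most abundant of the genes called higher. The FPKM of BnaC01g15480D was 2240 and 2167 in root of 2063A and 2554 and 2478 in root of B409, against 1.84 and 1.92 in flower bud of 2063A and 0.480 and 0.732 in flower bud of B409. The lowest root library was at 2167 and the highest flower bud library at 1.92 (log2 change 10.10, SE 0.19, limma adjusted p = 4.2e-10). BnaA03g30810D was at 565 and 554 in root of 2063A and 757 and 780 in root of B409, and it was listed at 0 in all 4 flower bud libraries (limma adjusted p = 3.6e-11). No fold is given against 0, and the order of these 2 genes turns at a pseudocount of 0.1. BnaA06g34860D, the next most abundant of the genes called higher, had 1612 and 1625 in root of 2063A and 1926 and 1917 in root of B409, against 12.3 and 15.4 in flower bud of 2063A and 4.59 and 3.87 in flower bud of B409. Its root mean was 1770 ± 175 and its flower bud mean 9.02 ± 5.68 (SD, n = 4 each; log2 change 7.65, SE 0.31, limma adjusted p = 4.0e-08). These 3 identifiers lie on chromosomes C01, A03 and A06, and the files and the RefSeq table give none of them a gene name.

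The deepest falls in root also ended at or near 0. BnaA10g23670D was listed at 0 in all 4 root libraries and had an FPKM of 1406 and 1612 in flower bud of 2063A and 1327 and 1280 in flower bud of B409 (limma adjusted p = 2.3e-11). BnaA02g02910D was at 0.515 in 1 root library of 2063A and 0.290 in 1 of B409 and listed at 0 in the other 2, against 1537 and 1698 in flower bud of 2063A and 1611 and 1444 in flower bud of B409. Over both cultivars together its flower bud libraries span 1444 to 1698. Its change, -10.38 (SE 0.14, limma adjusted p = 8.2e-11), depends on the pseudocount because some root values are 0. The most abundant flower bud gene among those called lower was different in kind. BnaAnng37980D, which carries an A subgenome identifier without a chromosome, was at 77.8 and 83.2 in root of 2063A and 134 and 131 in root of B409, and at 1406 and 2122 in flower bud of 2063A and 2682 and 2330 in flower bud of B409. It was abundant in both tissues and lower in root without overlap, with means of 107 ± 30.2 in root and 2135 ± 538 in flower bud (SD, n = 4 each; log2 change -4.32, SE 0.12, limma adjusted p = 4.9e-09).

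Of the 2 identifiers with a RefSeq name neither passed the 2-fold threshold. BnaA02g32290D, listed as KCP1, was at 36.5 and 39.4 in root of 2063A and 10.1 and 11.8 in root of B409, against 20.2 and 18.9 in flower bud of 2063A and 8.09 and 7.60 in flower bud of B409. Root was above flower bud within each cultivar, and the tissues overlap when the cultivars are pooled (log2 change 0.68, SE 0.12, limma adjusted p = 0.00056). BnaCnng15100D, listed as TR1, was at 15.1 and 17.0 in root of 2063A and 13.8 and 17.9 in root of B409, against 8.52 and 11.02 in flower bud of 2063A and 9.54 and 7.71 in flower bud of B409. All its root libraries lie above all its flower bud libraries (log2 change 0.74, SE 0.12, limma adjusted p = 0.00051).

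**Figure D2:**
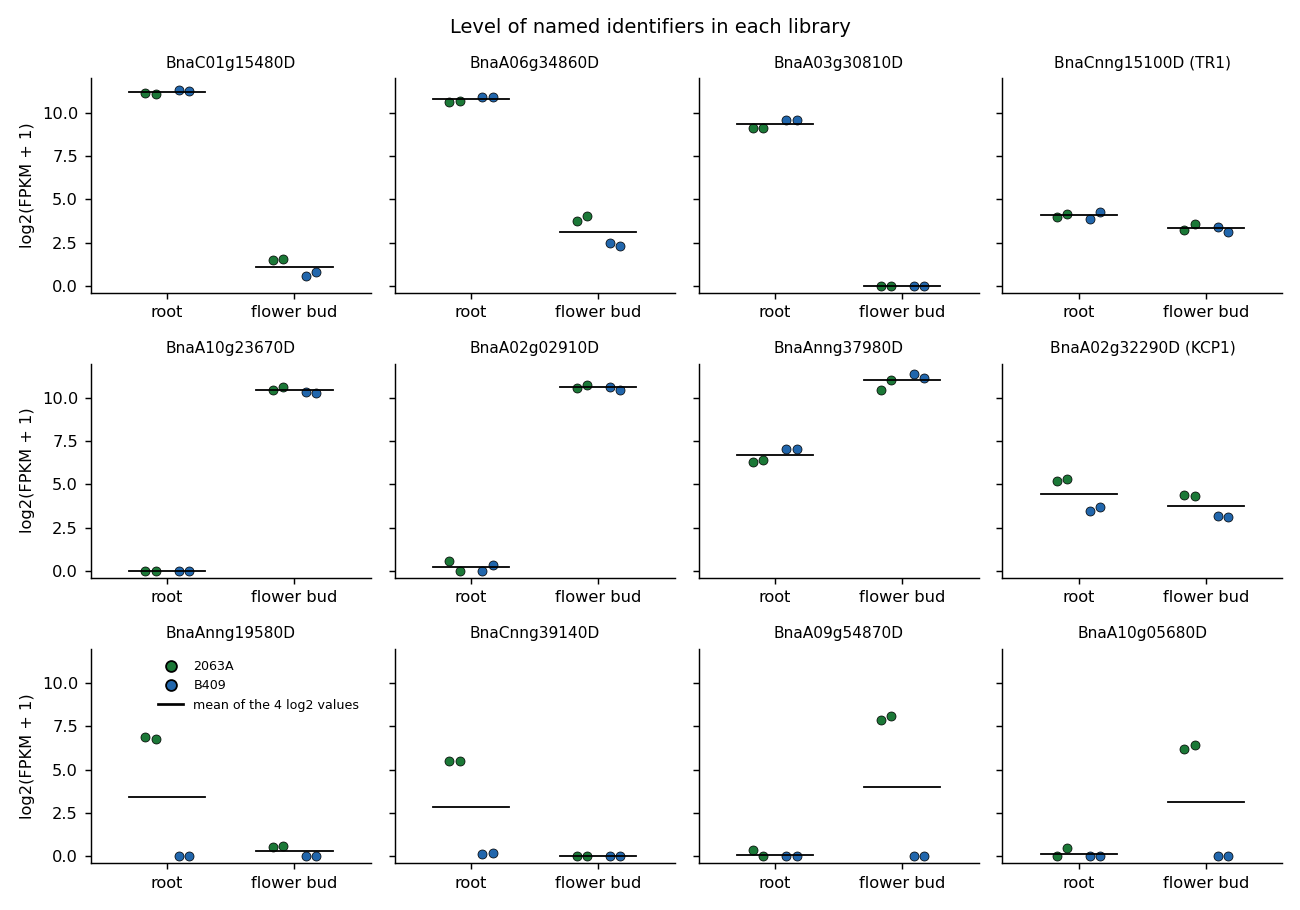
The vertical axis gives log2(FPKM + 1) of 12 identifiers, with the 4 root libraries left of the 4 flower bud libraries in each panel, points coloured by cultivar and a bar at the mean of the 4 log2 values. In the top 2 rows the tissues do not overlap except for BnaA02g32290D, where they separate within each cultivar, and the bottom row shows genes seen in 1 tissue of 2063A and near or at 0 in B409.

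Whether the tissue difference depends on the cultivar was tested as the difference itself, that is, the root-minus-bud change in 2063A minus that in B409. Across tested genes the 2 changes correlated at r = 0.914, as a description only. Within 2063A 9853 genes were called higher in root (19.5%) and 12093 lower (23.9%), and within B409 10882 higher (21.5%) and 11564 lower (22.9%). Called in both cultivars were 8268 genes on the higher side and 8759 on the lower side. A further 4873 genes were called in 2063A and not in B409, but the difference between cultivars passed for 1558 of them, and of the 5373 called in B409 and not in 2063A it passed for 1738. For most genes called in 1 cultivar alone, the cultivars were thus not shown to differ. The change was more positive in 2063A for 2473 genes (4.89% of those tested) and more negative for 3405 (6.73%), 11.6% in all. When an FPKM of 1 was required in at least 4 libraries, 1559 were more positive in 2063A and 2375 more negative. With quantile normalization these counts were 2819 and 2846, nearly equal.

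**Figure D3:**
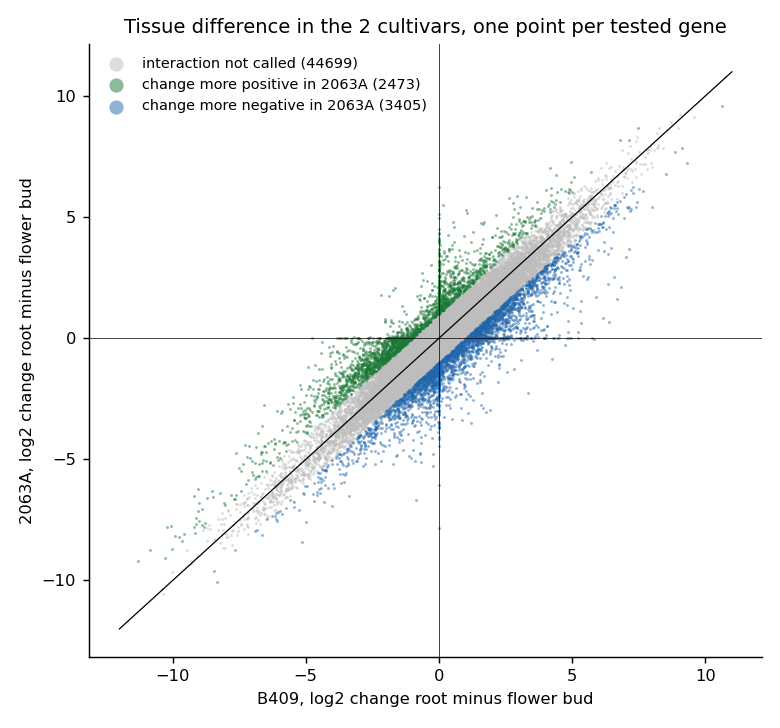
Each point is a tested gene; the vertical axis gives its log2 change root minus flower bud in 2063A and the horizontal axis that in B409, coloured by the test of their difference, with a line of equal change. Most points follow the line (r = 0.914), and genes along a zero line change in 1 cultivar and hardly in the other.

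Among the 5878 genes with a cultivar difference, 933 (15.9%) were below an FPKM of 1 in all 4 libraries of B409 and 894 (15.2%) in all 4 of 2063A, where all tested genes had 2704 (5.35%) and 2033 (4.02%). Such genes entered the test through the other cultivar alone, so these shares support nothing. The 4 genes named for the most positive and most negative differences were of this kind, and the levels that follow are a description. BnaAnng19580D was at 118 and 107 in root of 2063A and at 0.433 and 0.516 in its flower bud, and it was listed at 0 in all 4 libraries of B409. BnaCnng39140D was at 43.4 and 44.4 in root of 2063A and listed at 0 in its flower bud, and in B409 it was at 0.0632 and 0.136 in root and listed at 0 in flower bud. On the other side, BnaA09g54870D had 0.268 in 1 root library of 2063A and 0 in the other, 238 and 273 in flower bud of 2063A, and was listed at 0 throughout B409. BnaA10g05680D had 0 and 0.374 in root of 2063A, 71.7 and 83.7 in flower bud of 2063A, and was likewise listed at 0 throughout B409. Each of the 4 reached an FPKM of 1 in 2 libraries, those of 1 group of 2063A, and none of them is tested when an FPKM of 1 is required in at least 4 libraries. The pooled tissue calls of these 4 genes (limma adjusted p = 0.019 to 0.024) were lost without either library of 1 group of 2063A, flower bud for the first pair and root for the second (limma adjusted p = 0.0584 to 0.072). Without either library of the group of 2063A where they were high, these genes miss the filter and are not tested. They entered the test through that group alone, so these p-values support nothing.

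Calls in opposite directions were few. Of the tested genes 46 were called in opposite directions in the cultivars, 7 of them higher in root in 2063A and lower in B409 and 39 the other way round. Opposite calls fix the difference of the changes, so it is given no test here. BnaA05g00480D, chosen after values were seen as the one among the 39 whose smaller change of the cultivars was the furthest from 0, was at 3.36 and 3.62 in root of 2063A against 19.0 and 22.2 in its flower bud, while B409 had 27.3 and 22.2 in root against 1.76 and 1.34 in flower bud. Its log2 change was -2.26 in 2063A and 3.33 in B409. BnaC08g36300D, chosen the same way among the 7, was at 8.85 and 9.48 in root of 2063A against 1.63 and 2.25 in its flower bud, while B409 had 0.782 and 0.613 in root against 7.68 and 5.61 in flower bud. Its log2 change was 1.80 in 2063A and -2.16 in B409. The groups do not overlap within either cultivar for these 2 genes. Of the 46 genes, 14 (30.4%) carry C09 identifiers and 9 (19.6%) C subgenome identifiers without a chromosome, which hold 5.07% and 6.25% of all tested genes.

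The next comparison was by position. Identifiers give the subgenome and the chromosome, and identifier numbers give the order along it. Called genes were spread over both subgenomes in nearly the same shares: 20.3% of 24912 tested A genes were higher in root and 23.2% lower, and of 25543 tested C genes 20.2% were higher and 22.4% lower, close to the 20.3% and 22.8% of all tested genes. Among named chromosomes the share higher in root ran from 16.9% on C09 and 17.3% on A10 to 22.9% on C07, and the share lower from 19.1% on C02 and 19.8% on C03 to 25.4% on C09. C09 was at the end of both ranges, with a median change of -0.35 against -0.24 over all tested genes.

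**Figure D4:**
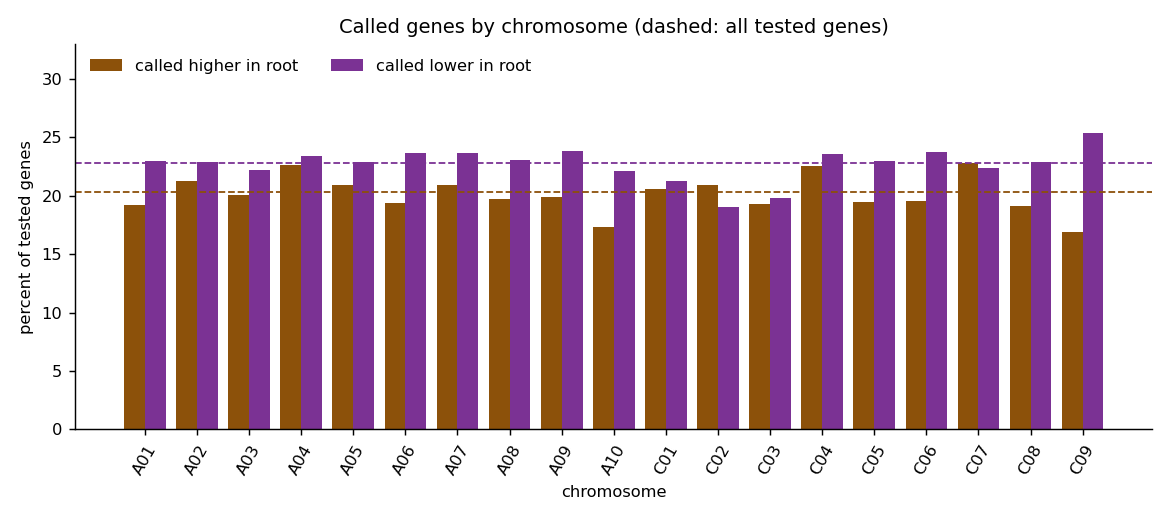
Bars give the percent of tested genes called higher and lower in root on each named chromosome, and dashed lines the percent over all tested genes (20.3% higher, 22.8% lower). Most chromosomes lie near the lines, and C09 has the lowest bar for higher genes (16.9%) and the highest for lower genes (25.4%).

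The share of the A subgenome was taken of the FPKM summed over A and C genes, leaving out genes of neither subgenome. It was 49.6% and 49.5% in root of 2063A and 48.9% and 49.0% in root of B409, against 50.5% and 50.7% in flower bud of 2063A and 49.5% and 49.7% in flower bud of B409. Within each cultivar the root libraries lay below the flower bud libraries, with differences of -1.04 percentage points in 2063A and -0.64 in B409, while pooled over cultivars the tissues overlapped. The difference of -0.84 did not pass (exact permutation test of 4 against 4, two-sided p = 0.0571, adjusted p = 0.171 over 3 measures; the smallest p this design allows is 0.0286). Relabelling within each cultivar gave an exact p of 0.0556, the smallest it can give. On named chromosomes alone the difference was -0.45 (exact permutation p = 0.286), and with the 100 genes of highest mean level removed it was 0.10, on the other side of 0. The number of genes at an FPKM of 1 or more was 38823 ± 278 in root and 40334 ± 1272 in flower bud (SD, n = 4 each; exact permutation p = 0.114, adjusted p = 0.171). In flower bud it was 41210 and 41456 in 2063A and 39979 and 38691 in B409, the same order as the relative depths of 1.46, 1.84, 1.02 and 0.668. The root libraries did not keep that order, with 38776 at a depth of 0.958 and 38841 at 0.927. The part of depth in this count was not tested. The difference was -1386 genes at an FPKM minimum of 5 (exact permutation p = 0.0286, adjusted p = 0.0857) and -1267 at 0.5 (exact permutation p = 0.2). The 100 most abundant genes held 9.35% ± 0.33 of summed FPKM in root and 9.38% ± 0.81 in flower bud (SD, n = 4 each; exact permutation p = 1.0), and the difference was 0.37 percentage points in 2063A and -0.42 in B409.

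Neighbours shared their direction slightly more often than genes at large. Of 9086 genes called higher in root with a next tested gene on a named chromosome, 24.2% had that neighbour called higher too, against 20.1% called higher on these chromosomes. For genes called lower the share was 25.4% of 10280, against 22.7%. Counted by runs rather than by genes, 5234 of 6891 runs of higher genes and 5708 of 7673 runs of lower genes were single genes. Runs of 5 or more genes numbered 21 and 35. How many single genes a random order would give was not tested.

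The longest run in each direction held 9 tested genes. On A05 it went from BnaA05g27280D to BnaA05g27390D, higher in root, with 9 tested of 12 listed genes. BnaA05g27280D was at 10.5 and 8.52 in root of 2063A and 10.5 and 10.9 in root of B409, against 1.04 and 0.907 in flower bud of 2063A and 0.894 and 0.682 in flower bud of B409 (log2 change 2.56, SE 0.12, limma adjusted p = 9.7e-08). BnaA05g27390D was at 2.16 to 4.45 in root and did not exceed 0.272 in flower bud. The 9 genes had mean levels of 3.15 to 41.0 in root and 0.0439 to 12.5 in flower bud, and log2 changes of 1.02 to 3.08. On C09 the run went from BnaC09g29090D to BnaC09g29270D, lower in root, with 9 tested of 19 listed genes. Its genes were at or near 0 in root: 7 of the 9 were listed at 0 in all 4 root libraries, the other 2 (BnaC09g29110D and BnaC09g29220D) in 3 of 4, and no root mean exceeded 0.0509. In flower bud the same genes had means of 1.19 to 33.1, led by BnaC09g29220D at 33.1 and BnaC09g29110D at 29.4. BnaC09g29090D, at its start, was at 3.01 and 6.11 in flower bud of 2063A and 3.84 and 2.20 in flower bud of B409, and BnaC09g29270D, at its end, was at 2.80 to 4.66.

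Cultivar differences in the tissue change were uneven along the chromosomes. In 897 windows of 50 consecutive tested genes, the median window held 5 genes with a cultivar difference, and 11 windows held 20 or more. Of these, 6 were side by side near the end of C09, from BnaC09g45580D to BnaC09g50810D, 4 lay on C02 between BnaC02g36850D and BnaC02g43760D, and 1 was at the start of C09. In the window at the start of C09, medians of group means were 4.79 in root and 8.16 in flower bud of 2063A. In B409 they were 0 and 0.0523. Genes below 1 throughout B409 entered the test through 2063A alone, so calls on them support nothing. In the C09 stretch of 6 windows 177 of 300 tested genes (59.0%) had a more negative change in 2063A and 7 (2.33%) a more positive one. Over all tested genes these shares were 6.73% and 4.89%. The median FPKM of its genes was 0.0686 and 0.0694 in root of 2063A and 4.05 and 4.29 in root of B409, against 2.53 and 2.38 in flower bud of 2063A and 4.92 and 4.55 in flower bud of B409. The root of 2063A was the lowest of the 4 groups: 63 and 59 of the 300 genes reached an FPKM of 1 there, compared with 258 and 256 in root of B409, 212 and 217 in flower bud of 2063A and 246 and 242 in flower bud of B409.

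Within 2063A 171 of the 300 genes of the C09 stretch were called lower in root and 9 higher, while within B409 65 were lower and 68 higher. Over all tested genes 23.9% were lower and 19.5% higher within 2063A, and 22.9% and 21.5% within B409. The stretch held 11 of the 46 reversed genes, all lower in root of 2063A and higher in root of B409. All 46 also passed as cultivar differences, and the stretch was picked for such differences. Their number and direction in it are a description and support nothing. Without the stretch, 17.8% of 2262 tested C09 genes were higher in root and 23.4% lower, with a median change of -0.30 and a cultivar difference in 8.58%. The C02 stretch, 250 tested genes over 5 windows, went the other way and was mixed, with a more positive change in 2063A for 74 genes (29.6%, against 4.89% over all tested genes) and a more negative one for 29 (11.6%, against 6.73%). Its median FPKM was 1.57 and 1.61 in root of 2063A and 2.45 and 2.62 in root of B409, against 0.691 and 0.794 in flower bud of 2063A and 2.97 and 2.67 in flower bud of B409. By these medians 2063A was below B409 in both tissues, but in the last window of the stretch, from BnaC02g42160D, 2063A was the higher. Medians of group means there were 2.04 in root and 1.39 in flower bud of 2063A, against 0.0265 and 0 in B409. The limit on genes below 1 throughout B409 holds for that window too. These windows were chosen after counts by chromosome were seen, and no test was made over them.

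**Figure D5:**
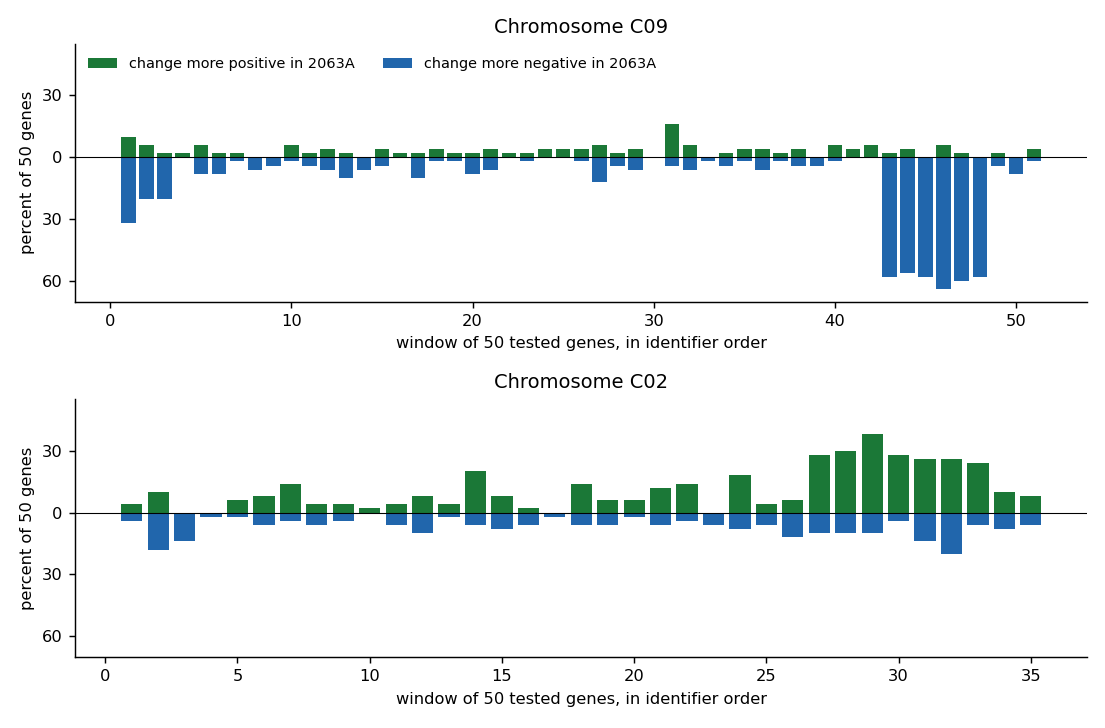
Bars give, for each window of 50 tested genes in identifier order on C09 and C02, the percent with a root-minus-bud change more positive (up) or more negative (down) in 2063A than in B409. On C09 6 windows in a row reach 56% to 64% on the negative side, and on C02 the positive side reaches 38%.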

How the data were processed

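The 8 root and flower bud files hold 1 value per gene in FPKM (fragments scaled to transcript length and mapped fragments), made by the authors with 1 library per file, per the file headers. Trimmomatic, TopHat2 and Cufflinks 2.1.1 are named without roles, per the submitters' processing notes; the genome build, the annotation and the handling of reads matching both subgenomes were not given in the sources used here; near-identical copies of a gene are uncertain. Values were joined by identifier and transformed to log2(FPKM + 1), and the log2 changes computed here understate changes at low values. Genes that reached an FPKM of 1 in 2 or more of the 8 libraries were tested with limma 3.58.1 in R 4.3.3 (tissue plus cultivar; empirical Bayes with a mean-variance trend; 5 residual and 3.74 prior degrees of freedom). Changes within each cultivar and their difference came from a limma fit with 1 mean per group (4 residual and 3.92 prior degrees of freedom). Adjusted p-values are Benjamini-Hochberg over all tested genes, two-sided. The fit was tested on simulated data. FPKM is not a count, so no count model was used. Counts per gene were not recovered and no counting interval is given.

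Low values carry the relative depth, because 1 fragment of a gene has a fixed worth in a library. The commonest ratio of values under 0.5 between a library and 2063A root replicate 1 gave depths in Python 3.11.15; 69.6% to 85.4% of such ratios lay within 0.006 (log2) of a ratio of whole numbers up to 5.

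The labels do not say that replicate numbers pair root with flower bud libraries. Deviations from the group means correlated at -0.010 in 2063A and 0.009 in B409. These values show no shared shift, but with 2 replicates per group they cannot exclude a pairing. Identifiers give chromosome and subgenome. The RefSeq gene table of assembly Da-Ae matched 3347 identifiers and names 2 of them. No member of the lists of floral, anther, photosynthesis, root, uptake, seed oil, gibberellin, glucosinolate and constitutive genes was matched, so no list was described. No sequence was used here. The text names every gene with a RefSeq name, the 2 identifiers without overlap with the largest rise and the 2 with the deepest fall, the 2 called with the highest mean in each tissue, the 2 at each end of the cultivar difference and the ends of the longest run in each direction. The members, the lists and the rules were chosen with earlier results of these data known; the windows and the pair of genes with opposite changes were chosen after their values were seen. Alternatives were a pseudocount of 0.1, other filters and scalings, other fits, a replicate block and leaving out each library.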

Additional observations from a re-analysis of the deposited data

Results flagged for a closer look

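Of the identifiers named above, 8 had a root-minus-bud change that differed between the cultivars at a limma adjusted p below 0.05 and by at least 2-fold. Over all tested genes 11.6% did. Most of the 8 were named for this difference or for opposite changes, so their number supports nothing. The change in 2063A minus that in B409 was 6.26 for BnaAnng19580D, 5.35 for BnaCnng39140D, -7.83 for BnaA09g54870D and -6.07 for BnaA10g05680D. These 4 were named for it and are compared with groups at or near 0, so the sizes depend on the pseudocount: at 0.1 they were 7.61, 7.81, -10.38 and -8.48. The difference was 3.96 for BnaC08g36300D and -5.60 for BnaA05g00480D, named for their opposite directions, which fix a difference in advance. It was -1.04 for BnaC01g15480D (limma adjusted p = 0.00084) and -1.75 for BnaA06g34860D (limma adjusted p = 0.00021), both higher in root of B409 than in root of 2063A and lower in its flower bud. BnaA03g30810D (-0.46, limma adjusted p = 0.015) and BnaA02g32290D (0.49, limma adjusted p = 0.042) passed the adjusted p but not the 2-fold threshold.

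A single library stood apart from the other 3 of its tissue in 3 of 42 sets of 4 libraries examined. No chance rate is given, since sets listed at 0 throughout cannot be flagged and sets with 1 library above 0 always are. In each the other 3 libraries were listed at 0, so the gap made up the whole range (ratio 1). These were BnaA09g54870D in root (0.268 in 2063A replicate 1), BnaA10g05680D in root (0.374 in 2063A replicate 2) and BnaA05g27390D in flower bud (0.272 in 2063A replicate 2).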

How the results depend on the processing

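Over every setting tried, 9220 to 12294 genes were called higher in root and 10124 to 15736 lower, and no gene called one way in the reported fit was called the other way. Genes with a more positive change in 2063A numbered 1559 when an FPKM of 1 had to be reached in 4 libraries or more, which tested fewer genes (44637). The difference in A subgenome share was 0.1045 percentage points with the 100 genes of highest mean level removed (exact permutation p = 0.571) and -0.453 on named chromosomes alone; the cause was not tested. The difference in the share of the 100 most abundant genes ranged from -0.3367 to 0.2182 percentage points when 1 library was left out, on both sides of 0, so no direction is given for it. With 1 library left out, 9922 to 10344 genes were higher and 11239 to 11624 lower.

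No pairing of the tissues by replicate number was labelled or seen. With a replicate block 10102 genes were higher and 11422 lower. The A share difference then had an exact sign-flip p of 0.125, the smallest that 4 pairs allow. The block ended the pooled tissue calls of BnaAnng19580D, BnaCnng39140D, BnaA09g54870D and BnaA10g05680D (limma adjusted p = 0.0502 to 0.0585), as did leaving out the cultivar covariate (0.0894 to 0.13). FPKM without counts limits statements on genes near 0, and the shallowest library was flower bud of B409 replicate 2, at a relative depth of 0.668.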
